A study of Mus musculus with 8 samples.

Results

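The genes described are 10 members of the MHC class II system: the classical chains H2-Aa, H2-Ab1 and H2-Eb1, the peptide-loading chains H2-DMa, H2-DMb1 and H2-DMb2, their modulators H2-Oa and H2-Ob, the invariant chain Cd74 and the transactivator Ciita. They were chosen by gene symbol, and every probe carrying one of these symbols was kept. This gave 17 of the 46089 probes and 10 of the 22446 named genes on the array. All 17 probes passed the filter on dim values, which kept 24711 probes and 14997 genes. Expression had been measured on Illumina bead arrays in medullary thymic epithelial cells (mTECs) sorted from mouse thymus. The 4 groups of 2 biological replicates were CD80low and CD80high mTECs of control mice, labelled as wild-type controls of the matings, and the same 2 subsets from mice in which Hipk2 was deleted in thymic epithelium. Hipk2 encodes a nuclear protein kinase, and no treatment is given for any group. The sources used here do not give the Cre line, the age of the mice or whether animals were pooled.

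MHC class II molecules display peptides to CD4+ T cells, and on mTECs they present self-antigens to developing thymocytes. The alpha and beta chains assemble around the invariant chain, which is cut down in endosomes to a fragment that H2-DM exchanges for other peptides, while H2-O restrains H2-DM. Transcription of these genes depends on CIITA, a coactivator that does not bind DNA itself but docks onto factors bound to a shared promoter module. Surface class II and CD80 both increase as mTECs mature, and the mature CD80high cells include those that express Aire. The labels name CD80 alone as the sorting marker.

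That shared module holds an X1 box bound by the RFX complex, an X2 box bound by CREB-type factors and a Y box bound by NF-Y. Promoter windows from RefSeq (GRCm38.p6) were available for 7 of the 10 genes, in 8 windows; none was used for H2-Ab1, Cd74 or Ciita. The 250 bases before each start site were searched on both strands for the letters GATTGG of the Y box, GCAAC of the X1 box and TGATGC of the X2 box, which do not overlap one another in the stretches shown. These letters and the spacing used were settled after the sequences had been viewed. GATTGG occurred in a window of all 7 genes and in 14.6% of all 32851 windows, GCAAC in 5 genes and 29.9% of windows, and TGATGC in 4 genes and 9.18% of windows. An X1 or X2 core lying 20 to 35 bases upstream of a Y core on the same strand occurred in 6 of the 7 genes and in 0.356% of all windows. The stretches of those 6 genes are shown because they are the piece of sequence that these genes have in common, each read 5′ to 3′ on the gene's own strand, with the matching cores in capitals and the Y core aligned.
H2-Oa (chr17:34092280-34092360, plus strand): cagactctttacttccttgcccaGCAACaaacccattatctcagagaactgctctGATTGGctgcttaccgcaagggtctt
H2-Aa (chr17:34287847-34287927, minus strand): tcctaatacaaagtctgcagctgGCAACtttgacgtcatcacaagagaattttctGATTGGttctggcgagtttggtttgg
H2-Ob (chr17:34238792-34238872, plus strand): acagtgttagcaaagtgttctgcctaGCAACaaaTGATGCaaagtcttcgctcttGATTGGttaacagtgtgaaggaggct
H2-Eb1 (chr17:34305752-34305832, plus strand): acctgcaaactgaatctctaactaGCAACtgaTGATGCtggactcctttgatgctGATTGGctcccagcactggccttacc
H2-DMb2 (chr17:34145103-34145183, plus strand): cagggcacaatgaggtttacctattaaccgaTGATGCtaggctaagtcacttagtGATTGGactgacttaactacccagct
H2-DMb1 (chr17:34153074-34153154, plus strand): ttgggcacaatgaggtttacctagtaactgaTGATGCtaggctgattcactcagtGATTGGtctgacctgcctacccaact
By these exact letters, H2-Ob and H2-Eb1 hold both X cores, H2-Oa and H2-Aa hold the X1 core alone, and H2-DMb1 and H2-DMb2 hold the X2 core alone. Other spellings of a box were not searched, so letters missing here do not show that the box is absent. The Y core began 44 bases before the start site in H2-Oa, 49 in H2-Aa, 58 in H2-Ob, 60 in H2-Eb1, 62 in H2-DMb1 and 91 in H2-DMb2. The stretches of the paralogs H2-DMb1 and H2-DMb2 were identical at 69 of 81 bases (85.2%). In H2-DMa the letters GATTGG lay 199 bases before one of its start sites, with no X core at that distance. A match to these letters is a description of the sequence and does not show that a factor binds there.

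The deposited intensities are on a linear scale with the background left in, so a gene with little RNA still reads close to the array median. Array medians lay between 105.7 and 110.1, and 47.5% to 52.9% of probes were above background on each array. Aire, the regulator of self-antigen expression, read 332 to 411 in the CD80low arrays and 6918 to 7636 in the CD80high arrays. Of 4 Hipk2 probes, 2 were above background, and with no position given relative to the deleted part they do not check the genotype labels. ILMN_2545445 read 191.8 to 254.4 in controls and 203.3 to 321.2 in knockouts, and ILMN_2705324 read 123.3 to 160.4 in controls and 116.8 to 140.2 in knockouts. The 2 arrays labelled CD80low replicate 1 stood apart: the T-cell receptor component Cd3e read 2599.6 (control) and 2668.1 (knockout) on them, against 150.7 to 279.6 on the other 6 arrays. Results for the class II genes that rest on the CD80low groups are therefore also given without these 2 arrays, as are calls or differences of other gene lists. In that fit the lone CD80low array of a genotype is assumed to vary like the other groups.

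In control mTECs the class II genes were higher in CD80high than in CD80low cells. Values were corrected for background, quantile-normalised and compared on the log2 scale with limma across all 14997 genes, one probe (the brightest) per gene, and a gene was called at a Benjamini-Hochberg adjusted p under 0.05. By this test 7 of the 10 members rose and none fell, against 21.5% of all genes called higher and 18.5% called lower. The 7 were H2-Aa, H2-Eb1, H2-DMb1, H2-DMb2, H2-Oa, H2-Ob and Ciita. All 10 members had a positive difference, with a median of 1.00 on the log2 scale, while the median over all genes was -0.02. The subsets did not overlap, with CD80high above, in 9 of the 10 members and in 35.5% of all genes. Counted by probe, 12 of the 17 rose, against 17.8% of all probes. With 2 arrays against 2, an exact permutation test of a single gene cannot go below p = 0.333, so the calls rest on the spread that limma shares across genes. In bulk RNA, fewer expressing cells and less RNA per cell cannot be told apart.

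**Figure D1:**
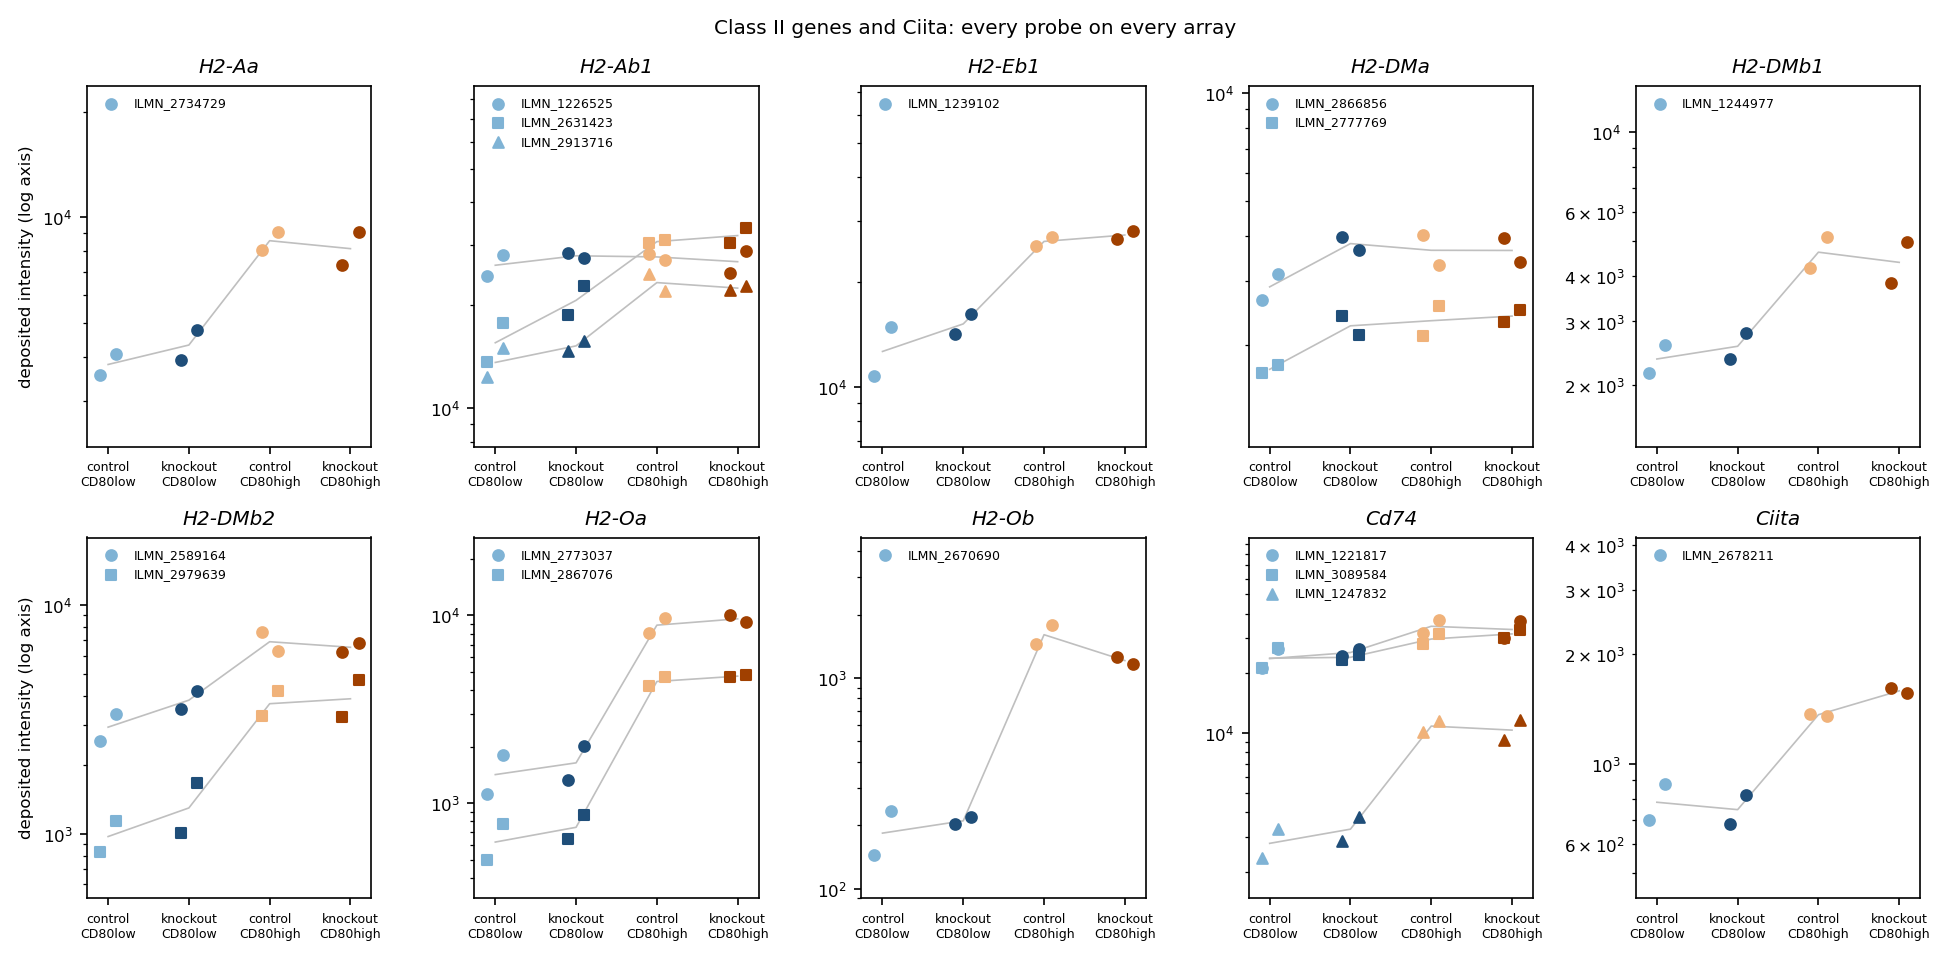
Deposited intensity (log axis, a scale of its own in each panel) of every probe of the 10 genes on every array, with 1 point per array, 2 arrays per group, marker shapes for the probes of a gene and grey lines joining group means. The CD80high arrays lie above the CD80low arrays for H2-Aa, H2-Eb1, H2-DMb1, H2-DMb2, H2-Oa, H2-Ob and Ciita, while the brightest probe of H2-Ab1 and both probes of H2-DMa overlap between subsets when genotypes are pooled.

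The classical chains form the peptide-binding molecule itself. H2-Aa, the I-A alpha chain, read 3551 and 4088 in control CD80low, 3929.6 and 4768 in knockout CD80low, 8087 and 9112 in control CD80high, and 7319 and 9069.9 in knockout CD80high. Every CD80high array was above every CD80low array, and within each subset the 2 genotypes overlapped. The difference in controls was 1.18 ± 0.204 (log2, standard error), a 2.27-fold rise (limma adjusted p = 0.00102). H2-Eb1, the I-E beta chain, read 10808 and 14839.9 in control CD80low, 14193 and 16249 in knockout CD80low, 25432 and 26897 in control CD80high, and 26569 and 28017 in knockout CD80high. It rose 2.03-fold in controls (1.02 ± 0.211, adjusted p = 0.00306), again with no overlap between subsets. H2-Ea, the I-E alpha chain, which some mouse strains do not express, has a probe that read 98 to 116.6 and did not pass the filter.

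H2-Ab1, the I-A beta chain, was measured by 3 probes that disagreed. Its brightest probe, ILMN_1226525, read 24391 and 28037 in control CD80low, 28313 and 27425 in knockout CD80low, 28189 and 27131 in control CD80high, and 24889 and 28816 in knockout CD80high. These values overlap across all 4 groups, and the difference in controls was 0.05 ± 0.190 (adjusted p = 0.853). The second, ILMN_2631423, read 13643 and 17687 in control CD80low, 18701 and 22819.7 in knockout CD80low, 30333 and 30963 in control CD80high, and 30377 and 33543 in knockout CD80high. By that probe H2-Ab1 was 2.01-fold higher in CD80high controls (adjusted p = 0.00407 over probes). The third, ILMN_2913716, read 12351 and 14996 in control CD80low against 24609 and 22008 in control CD80high, a 1.70-fold rise (adjusted p = 0.0127 over probes). In the gene-level test H2-Ab1 is represented by its brightest probe and was not called. Only 46 to 56 probes per array exceeded 20000, among them the brightest probes of H2-Ab1 and Cd74 on every array and H2-Eb1 on every CD80high array. Whether signal levels off at such intensities was not tested, and folds of these probes are to be read with that limit.

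Cd74, the invariant chain, showed the same disagreement between probes. ILMN_1221817 read 21382 and 26403 in control CD80low, 24482 and 26541 in knockout CD80low, 32098 and 37201 in control CD80high, and 30207 and 36688 in knockout CD80high. It was the brightest probe of the whole array on 3 of the 4 CD80high arrays. The subsets did not overlap, and the difference in controls was 0.50 ± 0.194, or 1.41-fold (adjusted p = 0.0633). ILMN_3089584, also above 20000 on every array, gave a 1.24-fold difference (adjusted p = 0.254 over probes). The dimmer ILMN_1247832 read 2359.8 and 3297 in control CD80low, 2857 and 3784 in knockout CD80low, 10198 and 11574 in control CD80high, and 9201 and 11681 in knockout CD80high. By this probe Cd74 rose 4.04-fold in controls (2.01 on the log2 scale, adjusted p = 1.08e-04 over probes) and 3.18-fold in knockouts (adjusted p = 3.85e-04). Cd74 passed the gene-level test in controls when no background was corrected (adjusted p = 0.0170) or when its probes were averaged (0.00357), and also with the replicate number as a block (0.0435). In knockouts it passed with its probes averaged (0.0100) and not without background correction.

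H2-DM loads peptides; its beta chains were called higher in CD80high and its alpha chain was not. H2-DMa read 2668 and 3139.7 in control CD80low, 3982 and 3659 in knockout CD80low, 4021 and 3326 in control CD80high, and 3944 and 3383 in knockout CD80high by its brighter probe. The lowest 2 values are the control CD80low arrays, and the other 3 groups overlap. The difference between subsets was 0.32 ± 0.206 in controls (adjusted p = 0.242), and by the second probe it was 0.45 (adjusted p = 0.102 over probes). H2-DMb1, a beta chain, read 2169 and 2579 in control CD80low, 2362 and 2782 in knockout CD80low, 4221 and 5132 in control CD80high, and 3828 and 4973 in knockout CD80high. It rose 1.97-fold in controls (0.98 ± 0.220, adjusted p = 0.00489), with no overlap. H2-DMb2, the other beta chain, read 2547 and 3353 in control CD80low, 3507 and 4193 in knockout CD80low, 7589.6 and 6289 in control CD80high, and 6246 and 6832 in knockout CD80high. It rose 2.39-fold (1.26 ± 0.217, adjusted p = 0.00103), and its dimmer probe, at 834 and 1131 in control CD80low against 3254 and 4208 in control CD80high, rose 4.02-fold (adjusted p = 5.51e-04 over probes). H2-DMb1 and H2-DMb2 are close paralogs and the probe sequences were not used here, so signal shared between them cannot be separated.

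The widest differences among the 17 probes belonged to H2-O, the inhibitor of H2-DM. H2-Ob, its beta chain, read 144 and 233.9 in control CD80low, 202.4 and 217.8 in knockout CD80low, 1442 and 1786 in control CD80high, and 1253 and 1167 in knockout CD80high. The CD80low arrays lie a little above background and every CD80high array lies far above them. The rise in controls was 13.2-fold (3.72 ± 0.295, adjusted p = 5.11e-06); without background correction it was 3.10 on the log2 scale. H2-Oa, its alpha chain, read 1122 and 1800.2 in control CD80low, 1333 and 2021 in knockout CD80low, 8108 and 9719 in control CD80high, and 10001 and 9199.8 in knockout CD80high. It rose 6.52-fold in controls (2.71 ± 0.287, adjusted p = 3.67e-05), and its second probe rose 7.77-fold. Without both CD80low replicate 1 arrays the rises were smaller. H2-Ob then rose 9.22-fold in controls and 7.49-fold in knockouts, and H2-Oa 5.06-fold and 4.89-fold. The 95% intervals of the log2 rise, 2.07 to 3.34 for H2-Oa and 3.07 to 4.38 for H2-Ob, lie above those of H2-Aa (0.73 to 1.64), H2-Eb1 (0.56 to 1.49) and Ciita (0.39 to 1.30). Dimmer probes of other members reached intervals that overlap that of H2-Oa, 1.48 to 2.54 for Cd74 and 1.33 to 2.68 for H2-DMb2, and differences between genes were not tested.

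Ciita, the transactivator, read 697.8 and 878.3 in control CD80low, 681.4 and 819 in knockout CD80low, 1370.4 and 1356 in control CD80high, and 1612 and 1559.9 in knockout CD80high. The 2 subsets were apart in both genotypes, and in CD80high the knockout arrays were the higher ones. The rise in controls was 1.80-fold (0.85 ± 0.204, adjusted p = 0.00746). A probe under the older symbol C2ta, which RefSeq lists as a synonym of Ciita, is not a member by symbol and read 136.5 and 155 in control CD80low, 148.7 and 172.2 in knockout CD80low, 211.4 and 281.2 in control CD80high, and 252.6 and 282.6 in knockout CD80high. It rose 2.17-fold in controls (adjusted p = 0.00496). Leaving out control CD80low replicate 1 took the Ciita probe to an adjusted p of 0.0565, leaving out control CD80high replicate 1 took it to 0.0523, and H2-DMb1 reached 0.0529 without control CD80high replicate 2. Their log2 differences were then 0.67, 0.83 and 0.85, against 0.85 for Ciita and 0.98 for H2-DMb1 with all arrays. Without both CD80low replicate 1 arrays, the folds in controls were 2.14 for H2-Aa, 1.75 for H2-Eb1, 1.82 for H2-DMb1, 2.09 for H2-DMb2 and 1.59 for Ciita. By their brightest probes they were 1.24 for Cd74, 1.16 for H2-DMa and 0.957 for H2-Ab1.

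**Figure D2:**
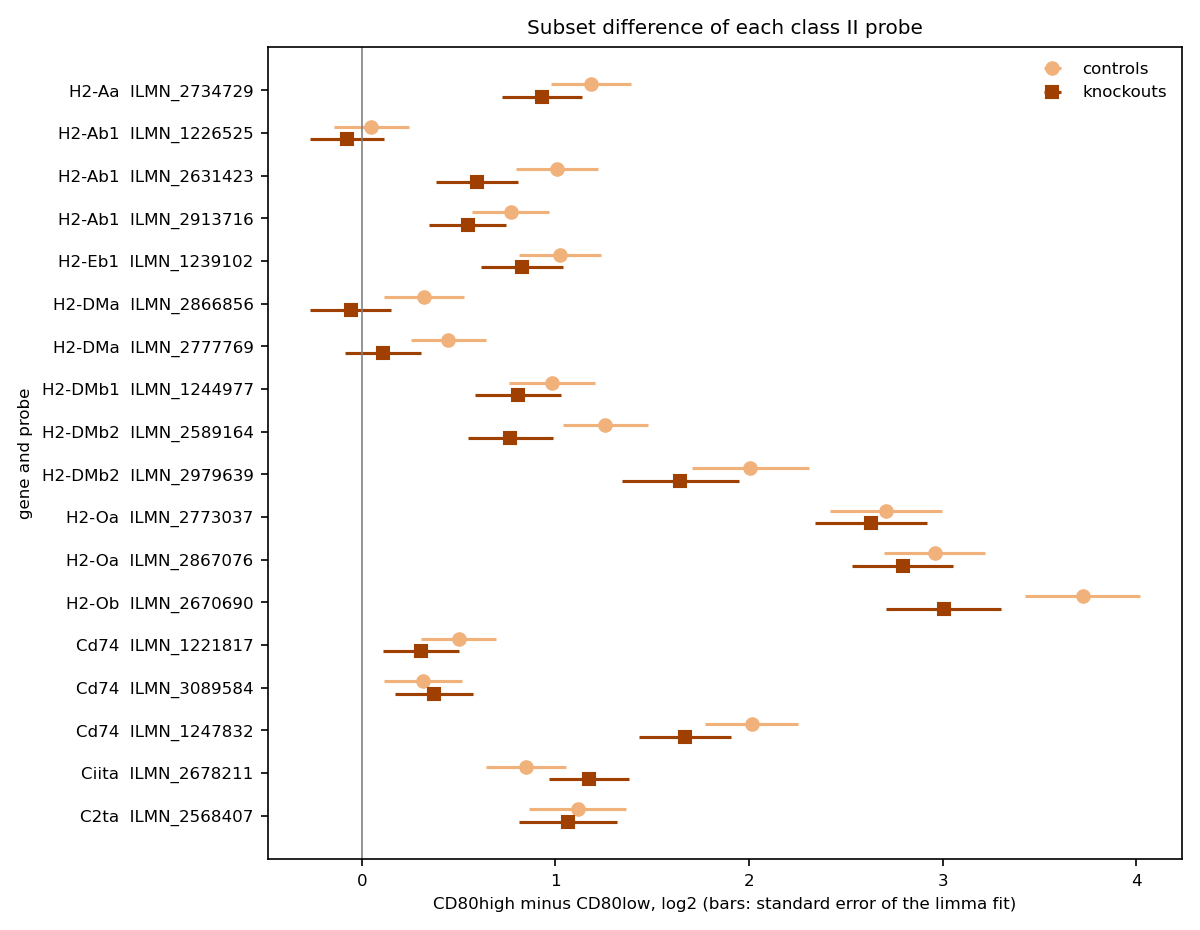
Difference between CD80high and CD80low (log2, horizontal axis) for each of the 17 probes and the C2ta probe, in controls (circles) and knockouts (squares), with bars for the standard error of the limma fit. H2-Oa and H2-Ob lie between 2.63 and 3.72, the brightest probes of H2-Ab1 and Cd74 lie at or below 0.50, and the dim Cd74 probe lies at 2.01 in controls.

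In knockout mTECs 7 members were called higher in CD80high, against 21.2% of all genes, and none was called lower, against 18% of all genes. H2-Ob rose 8.03-fold (3.00 ± 0.295, adjusted p = 2.15e-05) and H2-Oa 6.18-fold (2.63 ± 0.287, adjusted p = 4.47e-05). Ciita rose 2.25-fold (adjusted p = 0.00113), H2-Aa 1.91-fold (0.00453), H2-Eb1 1.77-fold (0.0104), H2-DMb1 1.75-fold (0.0142) and H2-DMb2 1.70-fold (0.0173). The subset difference of H2-DMa was -0.06 (adjusted p = 0.853), that of H2-Ab1 by its brightest probe -0.08 (0.781) and that of Cd74 by its brightest probe 0.31 (0.236). The other H2-Ab1 probes gave 0.60 and 0.55 (adjusted p = 0.0515 and adjusted p = 0.0572 over probes). By probe, 10 of 17 rose, against 17.5% of all probes. The subsets did not overlap, with CD80high above, in 8 members, against 34.7% of all genes. Without knockout CD80low replicate 1 the count of members called fell to 4, with H2-Eb1 at 0.71 (adjusted p = 0.0681), H2-DMb1 at 0.67 (0.0891) and H2-DMb2 at 0.64 (0.104) on the log2 scale, against 0.83, 0.81 and 0.77 with all arrays. It was 5 without both CD80low replicate 1 arrays, and 5 when either one of the knockout CD80high arrays was left out.

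Whether loss of Hipk2 altered class II expression was asked within each subset. No member was called in CD80low, where 0.00667% of genes were called, and none had an unadjusted p under 0.05, against 6.78% of all genes. In CD80low, 9 of 10 members were higher in knockouts, with a median log2 difference of 0.20, against 51.6% of all genes and a median of 0.01. Among the brightest probes H2-DMa had the widest difference, 0.42 (95% interval -0.04 to 0.88, limma adjusted p = 0.786). Both its arrays in knockouts, at 3982 and 3659, were above those in controls, at 2668 and 3139.7. Its second probe gave 0.40, from 1665 and 1753 in controls to 2399 and 2122 in knockouts. H2-DMb2 followed at 0.41 (interval -0.07 to 0.89, adjusted p = 0.838). Its dimmer probe gave 0.45, but there the genotypes overlap, at 834 and 1131 in controls and 1007 and 1667 in knockouts. By the brightest probe, H2-DMa and H2-DMb2 were the only members whose genotypes did not overlap in CD80low, both higher in knockouts, as were 15.1% of all genes, with 15.9% lower. The second probe of H2-Ab1, at 18701 and 22819.7 in knockouts against 13643 and 17687 in controls, gave 0.44 (adjusted p = 0.760 over probes) and did not overlap either. Ciita was the exception in sign among the brightest probes, at -0.08 (interval -0.53 to 0.38), while its C2ta probe gave 0.25. Of the 17 member probes, 15 were higher and 2 lower in knockouts, the other lower one being ILMN_3089584 of Cd74 (-0.02). Without both CD80low replicate 1 arrays the difference of H2-DMa was 0.24 and that of H2-DMb2 was 0.34, and H2-Ab1 and H2-Ob turned to -0.09 and -0.11.

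In CD80high no member was called (0.00667% of genes were) and none had an unadjusted p under 0.05, against 1.6% of all genes. Of the 10 members, 4 were higher and 6 lower in knockouts, with a median of -0.06. Ciita was the highest at 0.25 (95% interval -0.20 to 0.70), and its knockout arrays, at 1612 and 1559.9, did not overlap its control arrays, at 1370.4 and 1356. H2-Ob was the lowest at -0.41 (interval -1.06 to 0.25), with 1253 and 1167 in knockouts below 1442 and 1786 in controls. H2-Eb1, at 0.06, was apart on the normalised log2 scale alone, since its deposited intensities, 25432 and 26897 in controls and 26569 and 28017 in knockouts, overlap. Overlap was counted on normalised values of the brightest probe. Genotypes were apart and higher in knockouts in 13.1% of all genes, and apart and lower in 15.2%. For the classical chains the intervals in CD80high span -0.52 to 0.39 (H2-Aa), -0.49 to 0.35 (H2-Ab1, brightest probe) and -0.41 to 0.53 (H2-Eb1). Changes within these intervals were not excluded with 2 arrays a group.

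Averaged over both subsets, the knockout difference ran from -0.05 (H2-Ob) to 0.23 (H2-DMa), and no member was called, against 0.00667% of genes. The difference between subsets was also compared between genotypes with an interaction term. It was negative in 9 members, ran from -0.72 (H2-Ob, 95% interval -1.65 to 0.21) to 0.32 (Ciita, interval -0.32 to 0.97), and was called in no member and in 0% of genes. At an unadjusted p under 0.05 the interaction held 0 members and 3.31% of all genes. The 4 comparisons share arrays, so the values of a gene in one are not independent of its values in another.

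**Figure D3:**
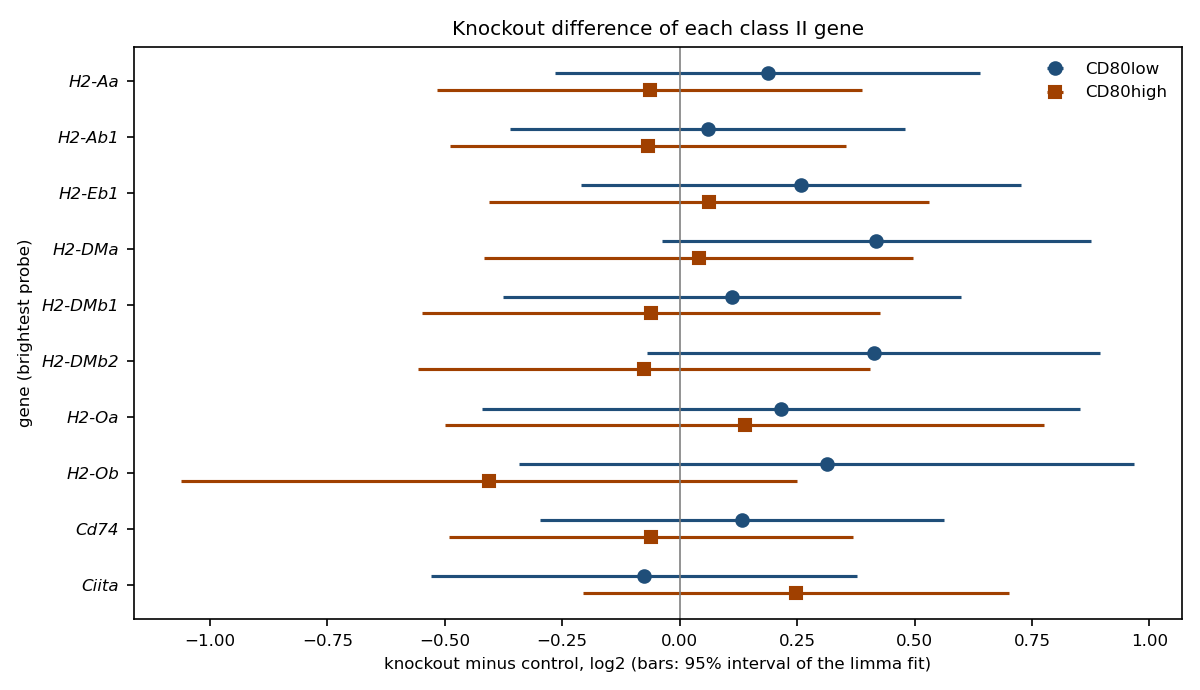
Difference between knockout and control (log2, horizontal axis) for the brightest probe of each gene in CD80low (circles) and CD80high (squares), with bars for the 95% interval of the limma fit. Every interval includes 0, and 9 of the 10 CD80low points lie above 0, up to 0.42 for H2-DMa.

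In CD80low, most member probes differed between replicates in one direction. All 17 member probes were higher on control CD80low replicate 2 than on replicate 1, with a median log2 difference of 0.37. By the brightest probe this was 10 of the 10 members, against 55.6% of all genes. In knockout CD80low 14 of 17 probes were higher on replicate 2 (median 0.25), which is 8 of the 10 members, against 53.6% of all genes. In CD80high the probes went both ways: 10 of 17 were higher on replicate 2 in controls (47.6% of all genes) and 11 in knockouts (47.2%), which is 5 of the 10 members in each. H2-Ob in control CD80low had the widest spread, with an SD of 0.72 at a mean of 6.85 (n = 2). The mean log2 level over the 10 genes was 11.35 and 11.76 in control CD80low, 11.66 and 11.86 in knockout CD80low, 12.81 and 12.83 in control CD80high, and 12.77 and 12.81 in knockout CD80high. Thus the order of groups was control CD80low, knockout CD80low, then the 2 CD80high groups, and only the step between subsets was wider than the spread between replicates.

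Markers of other cell types also differed between the subsets or between the CD80low replicates. The mean log2 level of 7 tested thymocyte markers (of 10 on the array) was 9.39 and 9.46 on the 2 CD80low replicate 1 arrays and 7.16 and 7.10 on the replicate 2 arrays, where the class II probes were higher, and 6.23 to 6.50 in CD80high. B cells, dendritic cells and macrophages express class II themselves. Of 10 tested dendritic and myeloid markers (14 on the array), 6 rose in CD80high controls and 7 in CD80high knockouts, against 21.5% and 21.2% of all genes. Those called in controls were Fcer1g, an Fc receptor chain, from 162.3 and 167.1 to 1186 and 1322, Lyz2, a lysozyme, from 494.9 and 395.8 to 4931 and 3759, Aif1 (3.87-fold), the macrophage marker Adgre1 (3.62-fold), the dendritic cell factor Zbtb46 (2.78-fold) and the growth factor receptor Csf1r (2.10-fold). The mean log2 level of that list was 6.77 to 7.06 in CD80low and 8.13 to 8.29 in CD80high. Of its 10 tested markers, 8 were higher and 2 lower in CD80high in each genotype. Sirpa read 452.4 and 728.2 in control CD80low and 439 and 627.8 in control CD80high, and Siglech 156.5 and 161.4 against 134.8 and 154.8. Tyrobp read 98.9 to 123.6 over all arrays, close to background. The 4 of the 14 that were not tested, Itgax, Flt3, Itgam and Xcr1, did not pass the filter and were each above background on 1 of 8 arrays. Of 4 tested B cell markers (6 on the array), 3 rose in controls and 4 in knockouts, against 21.5% and 21.2% of all genes. Their list means were 5.49 to 6.15 in CD80low and 7.39 to 7.78 in CD80high. In controls the called markers were the kinase Blk (6.32-fold), Fcrla (4.19-fold) and the antigen receptor chain Cd79b (2.45-fold), and Cd22 joined them in knockouts. The other 2 B cell markers, the regulator Pax5 and Ms4a1, which encodes CD20, did not pass the filter and were above background on 0 and 2 arrays. The list mean of 5 erythroid markers was 6.16 to 7.90 in CD80low and 7.99 to 8.55 in CD80high. In each genotype 3 were called higher, against 21.5% and 21.2% of all genes. The globin gene Hba-a1 read 4149.2 (control) and 2396.8 (knockout) on the CD80low replicate 1 arrays. On the CD80low replicate 2 arrays it read 256.8 and 301.9, and in CD80high 820.3 to 1451.5. Hbb-b1 had the same order. Fibroblast markers went the other way: 5 of 6 were called lower in CD80high controls and 3 in knockouts, against 18.5% and 18% of all genes. Dcn, a matrix proteoglycan, read 9987 and 7846 in control CD80low against 1309 and 1881 in control CD80high. The fibroblast list mean was 7.51 to 7.78 in CD80low and at most 6.49 in CD80high. Of 4 tested endothelial markers 1, Emcn, was called lower in controls, against 18.5% of all genes. In knockouts 1 was called lower and 1 higher, against 18% and 21.2% of all genes. The 1 called higher was Tek, at 134.6 and 144.9 in knockout CD80low and 230.6 and 189.3 in knockout CD80high. The endothelial list mean was 6.06 to 6.68 in CD80low and 5.76 to 6.05 in CD80high. With all arrays, 1 of the 7 tested thymocyte markers was called lower in each genotype, against 18.5% and 18% of all genes. Without both CD80low replicate 1 arrays, Fcer1g rose 11.6-fold and Lyz2 12.9-fold in controls, while Sirpa and Siglech were again lower (-0.55 and -0.38). In that fit Blk rose 6.97-fold and Cd22, the smallest of the 4 B cell markers, 1.17-fold. Dcn changed by -2.40 and Cd3e by -1.12, while Col1a1 (0.11) and Cd4 (0.07) went the other way, each as the only gene of its list. Whether these transcripts came from other cells in the sorts or from the mTECs themselves was not tested. Any part of other cells in the class II differences was not tested either. No marker of these lists was called between genotypes averaged over subsets.

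**Figure D4:**
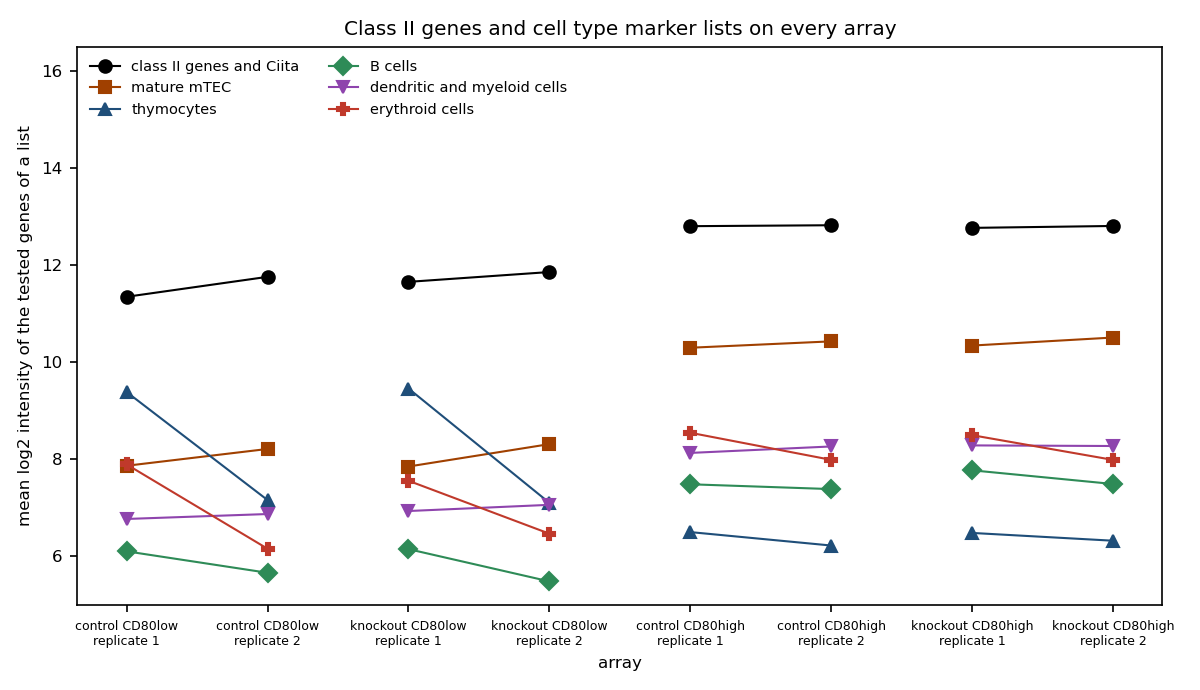
Mean log2 intensity of the tested genes of each list (vertical axis) on each of the 8 arrays, with lines joining the 2 replicates of a group. The class II genes lie at 11.35 to 11.86 in CD80low and 12.77 to 12.83 in CD80high, and the thymocyte markers fall from 9.39 and 9.46 on the CD80low replicate 1 arrays to 7.16 and 7.10 on the replicate 2 arrays.

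The class II genes sit together in the MHC on chromosome 17, apart from Cd74 and Ciita, which lie on other chromosomes. In the order of the RefSeq annotation, 15 protein-coding genes run from H2-Oa to Btnl2, and 7 of them are not members. Of those 7, 2 rose in CD80high controls and 1 fell, a share near the 21.5% and 18.5% of all genes called higher and lower. H2-Eb2, a class II beta chain gene, read 311.8 and 466.8 in control CD80low and 3247 and 3999.9 in control CD80high, an 11.2-fold rise (3.48 ± 0.254, adjusted p = 3.10e-06). Btnl2, a butyrophilin-like gene, read 99 to 109.1 in CD80low and 251.2 to 288.7 in CD80high, and it was not above background in knockout CD80low. Tap1, a transporter of peptides for class I, read 696.5 and 674.7 in control CD80low and 428.5 and 362.3 in control CD80high, a change of -0.94 (adjusted p = 0.00259). The class I processing genes Psmb8, Psmb9 and Tap2 and the chromatin reader Brd2 were not called. Without both CD80low replicate 1 arrays H2-Eb2 rose 8.87-fold and Tap1 changed by -0.91 (adjusted p = 0.0135), both still called, and Psmb8 was called higher (0.88, adjusted p = 0.0267). H2-DMa, with no call, lies between Brd2 and H2-DMb2 in this order.

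**Figure D5:**
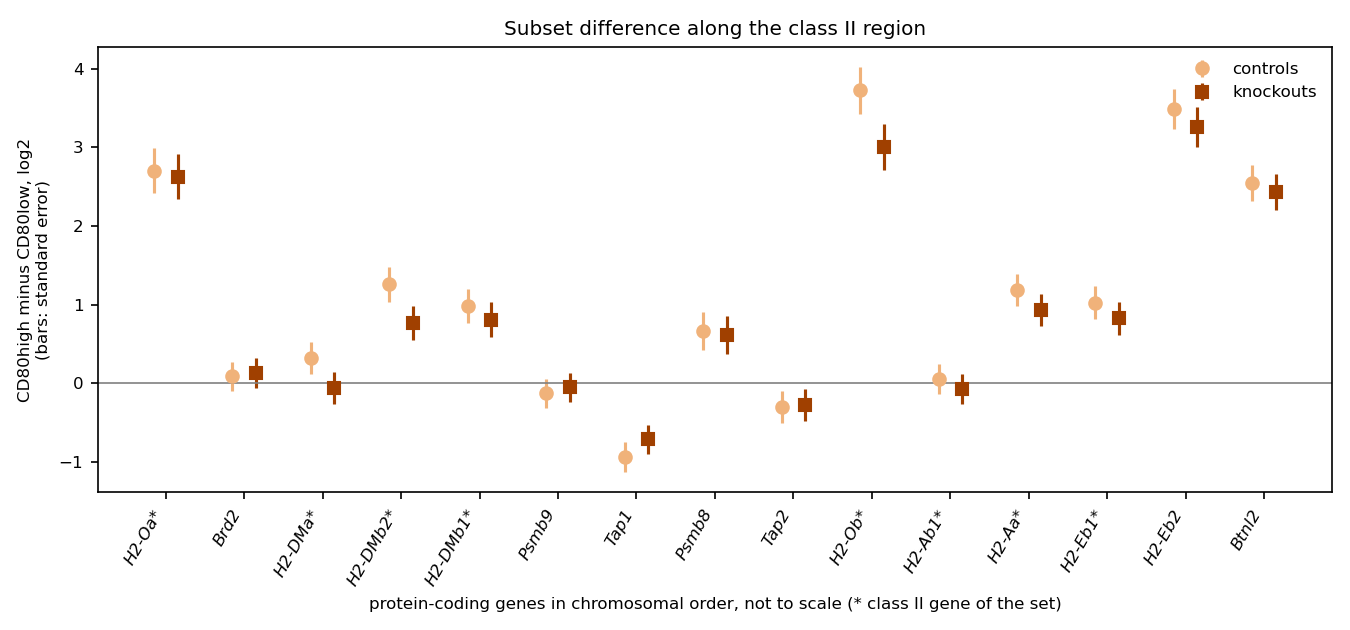
Difference between CD80high and CD80low (log2, vertical axis) for 15 protein-coding genes in chromosomal order, evenly spaced and not to scale, in controls (circles) and knockouts (squares), with bars for the standard error; class II genes of the set carry an asterisk. H2-Oa, H2-Ob and H2-Eb2 lie at 2.63 or above, Tap1 lies below 0, and the Btnl2 point in knockouts is a fitted value against arrays not above background.

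The factors that CIITA docks onto were measured as a separate list. Of 7 tested class II transcription factors (of 9 on the array), none was called higher and 2 fell in CD80high controls, where 21.5% of all genes were called higher and 18.5% lower. Rfxap, a subunit of the RFX complex, read 649.2 and 785.2 in control CD80low and 424.1 and 357.2 in control CD80high, a change of -1.03 (adjusted p = 0.00233), and the NF-Y subunit Nfyb changed by -0.96 (adjusted p = 0.00403). Interferon-gamma induces Ciita in many cells, and of 11 tested genes of its signalling 2 rose and 2 fell in controls, a share near that of all genes. Irf8, a transcription factor, rose 3.51-fold (adjusted p = 7.80e-04), and Ifng, which encodes the cytokine, was called higher at intensities of 103.8 to 151.5, close to background. Gbp2, an interferon-induced GTPase, changed by -2.70 (adjusted p = 1.00e-05) and the receptor chain Ifngr1 by -1.54 (adjusted p = 0.00262). In knockouts Rfxap, Nfyb, Irf8, Ifng, Gbp2 and Ifngr1 were called in the same directions. Without both CD80low replicate 1 arrays these 6 genes kept their signs in controls. The NF-Y subunit Nfya was then at 0.88 in controls and -0.62 in knockouts, against 0.46 and -0.63 with all arrays. The control CD80low array left in that fit read 94.2 for Nfya, under its background threshold of 107.2.

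Among 10 genes of class II antigen processing, 3 rose and 2 fell in CD80high controls, against 21.5% and 18.5% of all genes. Ifi30, the lysosomal thiol reductase, read 620.5 and 660 in control CD80low and 3153 and 2917 in control CD80high, a 5.08-fold rise (adjusted p = 4.58e-06). The cathepsins Ctsz and Ctss rose 4.55-fold (adjusted p = 1.67e-05) and 2.65-fold (9.50e-04), and Ctss, which cleaves the invariant chain, read only 112.3 to 133.4 in CD80low and 204.9 to 229.4 in CD80high. Ctsl, the cathepsin that does this in cortical thymic epithelium, read 265.6 to 422.7 in CD80low and 101.1 to 122.4 in CD80high, where 1 of 2 arrays of each genotype was above background, so no fold is given. The lysosomal membrane gene Lamp2 changed by -0.61 (adjusted p = 0.0401). Of 3 tested genes of class II turnover, Cd83, which opposes degradation of class II, rose 3.66-fold in controls (adjusted p = 9.09e-04) and 2.15-fold in knockouts (0.0183). All 9 tested class I genes had a positive difference in controls, as did 48.6% of all genes. In controls 1 of them, Tapbpl, a peptide editor, was called (1.85-fold, adjusted p = 0.00504), against 21.5% of all genes called higher. In knockouts H2-Q7 was called too (1.92-fold, adjusted p = 0.0208), against 21.2% of all genes. Without both CD80low replicate 1 arrays the 5 called processing genes, Cd83 and Tapbpl kept their signs in controls, and Cd83 rose 5.25-fold. Other genes of these lists moved too. The turnover gene Marchf8 changed by -1.08, against -0.64 with all arrays, and the class I gene Calr rose 2.35-fold. Neither was called with all arrays. No gene of these lists was called between genotypes averaged over subsets.

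The genes whose profile over the 8 arrays was most like that of Ciita were Inf2, Cyp2j13, Il3 and Plb1 (Pearson r = 0.993 each) and Nkx2-2 (0.992). Among the members, H2-Oa was closest to Ciita (r = 0.98, rank 57), H2-Eb1 followed at 0.96, and H2-DMa (0.32) and H2-Ab1 by its brightest probe (-0.05) were farthest. The profiles of the 3 classical chains were each standardised over the 8 arrays and then averaged. The gene outside the set most like that mean was BC048679 (r = 0.985), followed by Rasa3, Zdhhc7, Extl2 and Fut4 (0.978 to 0.983), and 239 genes reached 0.9. H2-Ab1 by its brightest probe reached 0.48 with that mean, against 0.87 for H2-Aa and 0.91 for H2-Eb1. As 2154 genes reached an r of 0.9 with Ciita, and the points fall into 2 subsets, these values are a description with no test.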

How the data were processed

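Total RNA of sorted mTECs was checked on a Bioanalyser, amplified and labelled with biotin, per the labels' protocols. The deposited values are probe intensities on a linear scale that the authors had already made comparable across arrays by a method that the sources used here do not name. From the values, the background had not been subtracted, and the lowest intensity per array was 74.1 to 80.5. A second table has 16 columns, 8 of them signals, named by slide position only, and was not used.

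Groups were taken from the sample titles. Probe symbols came from the platform annotation: 35667 probes had 1 symbol, 0 had several and 10422 had none. Intensities were corrected with limma 3.58.1 (R 4.3.3) by normexp with an offset of 16, with parameters estimated from the values since control probes were not used here, then quantile-normalised over the 8 arrays and log2-transformed. A probe was tested if it lay over the array's background mode by 1.645 background SDs on both arrays of at least 1 group. A model of group means was fitted to all 8 arrays (4 residual and 6.3 prior degrees of freedom), with Benjamini-Hochberg adjustment over 14997 genes, or over 24711 probes where a single probe is reported. Quantile normalisation gives probes of equal rank equal values, which compresses the SD of the brightest probes. The number of arrays limits the precision.

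The rule for named genes took all members, up to 4 genes per pathway list with the smallest p between subsets in controls, the 5 genes most like Ciita and the 5 most like the classical chains. Others, such as uncalled genes of the region and single cell type markers, were named after their values were seen. Members, lists, motifs and rules were chosen with earlier results of these data known. The labels call the samples biological replicates without naming animals. The scripts were tested on simulated data. Alternatives covered background, normalisation, filter, prior, probe choice, array weights, groups fitted, replicate number and each array left out; those of the least bright probe, and of the list genes without the CD80low replicate 1 arrays, were added after seeing the data.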

Additional observations from a re-analysis of the deposited data

How the results depend on the processing

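The 7 members called higher in CD80high controls varied from 6 to 8 when 1 array was left out, and from 7 to 9 under the other alternatives. In knockouts the 7 became 4 without knockout CD80low replicate 1 (4 to 7 over the 8 arrays left out in turn), 5 without both CD80low replicate 1 arrays and 9 with the least bright probe of each member. No member was called for the knockout in either subset, for the average or for the interaction under any alternative run. H2-Oa, H2-Ob and H2-Aa stayed called in both genotypes under all alternatives. With the replicate number as a block, 8 members were called in controls and 7 in knockouts, Cd74 being the addition (adjusted p = 0.0435). Nothing in the labels ties a replicate number to one animal or day; replicate differences correlated across all genes at r = 0.496 between the CD80low groups, 0.465 between the CD80high groups and 0.067 to 0.135 otherwise. The fit of 2 groups alone was not run for the average and the interaction.

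Signs turned only in differences that had no call with the settings of the report, and the cause was not tested. Without both CD80low replicate 1 arrays, H2-Ab1 became -0.064 between subsets in controls and -0.086 between genotypes in CD80low, H2-Ob became -0.11 between genotypes in CD80low, and H2-DMa became 0.010 between subsets in knockouts. With probes averaged or the least bright probe, the subset difference in knockouts became 0.35 and 0.55 for H2-Ab1 (the second called, adjusted p = 0.0493) and 0.026 and 0.11 for H2-DMa, and the CD80high genotype difference of H2-DMb2 became 0.0070 and 0.090. The CD80high genotype difference of H2-DMa became -0.0015 on deposited values and -0.0049 with median scaling. Leaving out 1 array moved the subset difference of H2-Ab1 in controls from -0.063 to 0.17 and of H2-DMa in knockouts from -0.19 to 0.073. It moved the CD80low genotype differences of Cd74 (-0.034 to 0.30), Ciita (-0.25 to 0.097), H2-Ab1 (-0.057 to 0.18), H2-DMb1 (-0.028 to 0.25), H2-Oa (-0.15 to 0.58) and H2-Ob (-0.19 to 0.82), and the CD80high ones of H2-Aa (-0.21 to 0.084), H2-Ab1 (-0.14 to 0.0016), H2-DMa (-0.11 to 0.19), H2-DMb1 (-0.25 to 0.13) and H2-DMb2 (-0.24 to 0.088). Having 2 arrays a group limits what could be detected.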
